A study of Mus musculus with 12 samples.

Results

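The expression of 9 transcription factors of the enteroendocrine lineage was described in mouse colonoids, organoids grown from colonic epithelial stem cells. The factors were *Neurog3*, *Neurod1*, *Insm1*, *Pax4*, *Pax6*, *Isl1*, *Nkx2-2*, *Rfx6* and *Fev*. They were taken by gene symbol from a table of 54532 genes, in which all 9 were listed, and were ordered from the progenitor factor to the late factors. The set was chosen by name with earlier results of these data in view, among them the FPKM of *Neurog3* in the 4 groups and its response to hemin. Their levels and calls are therefore given as a description, without p-values for single members.

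Colonoids came from C57BL/6 mice of 8 to 12 weeks that carried floxed *Hmox1* alleles (Hmox1 fl/fl, control) or in addition a Vil1-Cre transgene (Hmox1ΔIEC, labelled KO). The *Vil1* promoter drives Cre in epithelial cells of villi and crypts, and *Hmox1* encodes heme oxygenase-1, the enzyme that breaks down heme. All colonoids were kept in medium conditioned by L-WRN cells, and were exposed for 24 hours to vehicle or to 200 µM hemin, the chloride of ferric heme. Polyadenylated RNA gave 12 libraries, 3 for every combination of genotype and treatment. The labels gave replicate 3 of the colonoids labelled KO with hemin the genotype Hmox1 fl/fl with Vil1 Cre, and the other 5 libraries labelled KO the genotype Hmox1 KO with Vil1 Cre. Nothing in the sources used here said whether libraries of a group came from separate mice or cultures, so that adjusted p-values measure only the spread between these libraries, which may be technical.

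Fragments assigned to genes numbered 11648801 to 25101868 per library. In 3 libraries the RNA *Gm23935* took 16.8 to 29% of the summed FPKM, against 1.2 to 2.8% in the other 9. These were replicate 1 of the controls with vehicle, replicate 1 of the controls with hemin and replicate 2 of those labelled KO with hemin. *Hmox1* itself stood at 7.46 ± 0.541 FPKM (fragments per kilobase of gene, scaled to the library's fragments, SD, n = 3) in controls with vehicle and at 2.52 ± 0.547 in those labelled KO with vehicle. With hemin it stood at 456 ± 64.6 FPKM in controls and at 1314 ± 68.1 FPKM in colonoids labelled KO. That is the reverse of the order with vehicle, and not what a loss of this RNA would give. The gene's value does not separate deleted from remaining exons, and the genotype is therefore written as a label throughout. The labelled epithelial origin was checked with 7 genes, and *Epcam*, *Cdh1*, *Vil1*, *Krt8*, *Krt18*, *Krt20* and *Cdx2* together reached 4230 to 7520 FPKM per library.

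Enteroendocrine cells are the hormone-secreting cells of the gut epithelium and arise from secretory progenitors that escape Notch signaling. *Neurog3*, a short-lived basic helix-loop-helix factor, commits such a progenitor to the endocrine fate and then declines. The factors that follow it, among them *Neurod1*, *Insm1*, *Pax4*, *Nkx2-2* and *Rfx6*, drive differentiation and the choice between hormone-producing subtypes. In bulk RNA, fewer cells of this lineage and less RNA per cell cannot be told apart.

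Promoters of 7 of the 9 members were found in the RefSeq table for GRCm38.p6, and none was matched for *Insm1* and *Pax4*. The 250 bases before the RefSeq start of *Neurog3*, *Neurod1* and *Nkx2-2* are shown because these factors begin and continue the cascade and because each window holds the letters of an E-box, CANNTG, the short sequence that basic helix-loop-helix factors such as NEUROG3 and NEUROD1 bind. Capitals mark the E-boxes. The windows lie at chr10:62132840-62133089 on the plus strand for *Neurog3*, at chr2:79456637-79456886 on the minus strand for *Neurod1* and at chr2:147186403-147186652 on the minus strand for *Nkx2-2*, each printed 5′ to 3′ in the direction of transcription.
Neurog3: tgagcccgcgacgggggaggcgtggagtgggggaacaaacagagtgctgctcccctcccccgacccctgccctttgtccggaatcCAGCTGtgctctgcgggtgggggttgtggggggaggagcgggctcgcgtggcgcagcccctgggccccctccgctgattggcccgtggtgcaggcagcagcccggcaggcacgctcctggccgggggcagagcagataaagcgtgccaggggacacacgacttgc
Neurod1: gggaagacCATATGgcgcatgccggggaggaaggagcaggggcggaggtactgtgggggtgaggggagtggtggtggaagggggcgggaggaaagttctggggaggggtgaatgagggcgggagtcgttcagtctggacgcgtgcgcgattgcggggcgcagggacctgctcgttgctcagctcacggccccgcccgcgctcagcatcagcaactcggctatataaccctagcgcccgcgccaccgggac
Nkx2-2: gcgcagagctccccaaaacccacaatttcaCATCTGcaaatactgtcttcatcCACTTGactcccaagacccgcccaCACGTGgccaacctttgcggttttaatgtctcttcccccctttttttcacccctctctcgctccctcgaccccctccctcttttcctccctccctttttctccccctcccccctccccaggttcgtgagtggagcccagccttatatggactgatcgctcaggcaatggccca
The window of *Neurog3* held 1 E-box, CAGCTG, which began 165 bases before the start, and that of *Neurod1* held 1, CATATG, 242 bases before it. The window of *Nkx2-2* held 3, which were CATCTG at 220 bases, CACTTG at 197 bases and CACGTG at 173 bases. *Isl1* had 1 E-box, the first *Pax6* start none and the second 1, and *Rfx6* and *Fev* none. An E-box stood in 66.2% of all 32851 windows of this length and at least 3 stood in 12.2%. The N-box CACNAG, bound by Hes factors, was searched on both strands too. It was found once each before *Rfx6* and before the second *Pax6* start, and in 36.7% of all windows. These are matches of letters and not sites of binding.

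*Neurog3*, the progenitor factor, is a gene of 2 exons at chr10:62133090-62134763 (mm10, plus strand). In controls with vehicle it measured 2.9, 2.27 and 2.78 FPKM in replicates 1 to 3, and with hemin 4.56, 4.09 and 3.89 FPKM. Colonoids labelled KO had 20.2, 21 and 20.8 FPKM with vehicle, and 0.747, 0.381 and 0.791 FPKM with hemin. All 3 libraries labelled KO with vehicle were thus above every other library, and the 3 labelled KO with hemin were below every other library. The groups stood at 2.65 ± 0.333, 4.18 ± 0.343, 20.65 ± 0.397 and 0.64 ± 0.225 FPKM (mean ± SD, n = 3, in the order control vehicle, control hemin, labelled KO vehicle and labelled KO hemin). The ratio of group means was 7.79 for those labelled KO over controls with vehicle, and the mean with hemin was 32.3-fold below that with vehicle in those labelled KO. The pooled fragments, 52 with hemin and 1745 with vehicle, gave a ratio of 34.8 with an exact 95% interval of 26.4 to 46.7, which covers counting error only. *Neurog3* shares 273 exonic bases with *Fam241b* on the opposite strand, and the sources used here do not state whether counting used the strand. *Fam241b* stood between 4.05 and 4.96 FPKM in all 4 groups.

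*Neurod1*, a basic helix-loop-helix factor switched on after *Neurog3*, is a gene of 2 exons at chr2:79452521-79456751 (minus strand). It measured 1.13, 0.879 and 0.906 FPKM in controls with vehicle and 0.674, 0.248 and 0.596 FPKM with hemin. Those labelled KO had 2.67, 2.74 and 3 FPKM with vehicle and 0.814, 0.95 and 0.817 FPKM with hemin. The libraries labelled KO with hemin overlapped the vehicle controls and lay above all 3 controls with hemin. The group means and SDs were 0.973 ± 0.139, 0.506 ± 0.227, 2.8 ± 0.178 and 0.86 ± 0.0775 FPKM, again in the order of controls with vehicle and hemin and those labelled KO with vehicle and hemin. This gene shares 201 exonic bases with *Cerkl* on its own strand, which stayed at 0.0109 to 0.0558 FPKM in the group means.

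*Insm1*, a zinc finger repressor of the early endocrine program, lies in 1 exon at chr2:146221921-146225020 (plus strand). Its levels were 2.33, 2.27 and 2.32 FPKM in controls with vehicle and 1.53, 1.5 and 0.469 FPKM with hemin. Replicate 3 of the controls with hemin was the low library. Those labelled KO had levels of 16.8, 18.3 and 16.5 FPKM with vehicle and 2.22, 2.34 and 2.5 FPKM with hemin. The hemin-treated libraries labelled KO thus spanned the narrow range of the vehicle controls, 2.27 to 2.33 FPKM, while *Neurog3* in the same libraries was below every vehicle control. The mean was 7.46-fold above controls with vehicle, at 17.2 ± 0.932 against 2.31 ± 0.035 FPKM, and 7.31-fold lower with hemin, at 2.35 ± 0.139 FPKM (SD, n = 3).

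**Figure D1:**
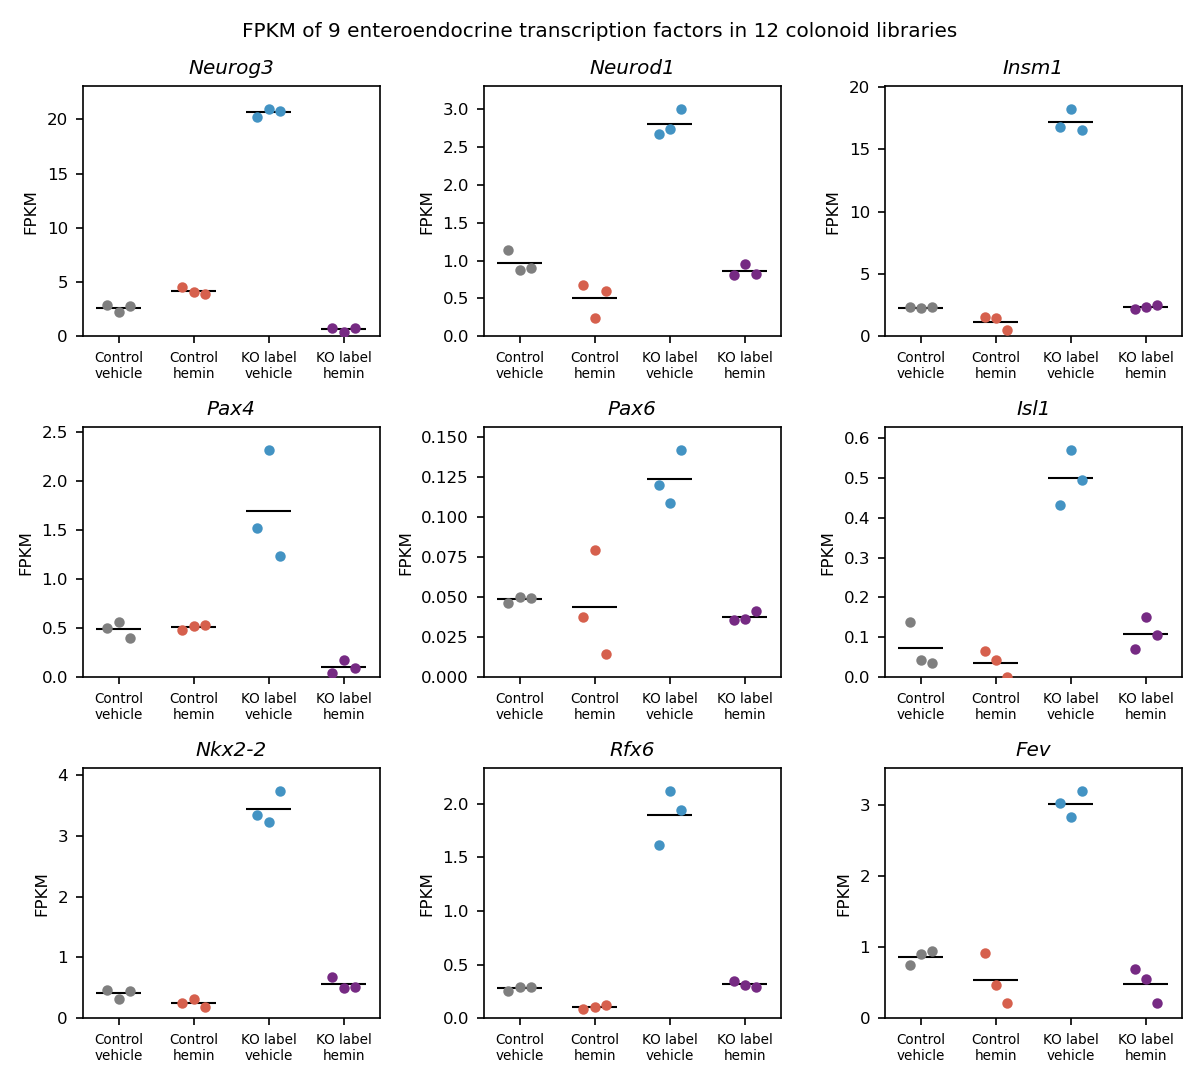
FPKM of each of the 9 transcription factors on a linear axis from 0, 1 panel per gene, with 1 point per library and a line at the mean of each group of 3. In all 9 panels the 3 libraries labelled KO with vehicle lie above the 9 others, and in the panel of *Neurog3* the controls with hemin, at 3.89 to 4.56 FPKM, lie above the controls with vehicle, at 2.27 to 2.9 FPKM.

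*Pax4*, a paired-box factor of early endocrine subtype choice, is at chr6:28442334-28449353 (minus strand). It had 0.503, 0.567 and 0.403 FPKM in controls with vehicle and 0.485, 0.527 and 0.533 FPKM with hemin. In those labelled KO it had 1.52, 2.32 and 1.23 FPKM with vehicle, and with hemin 0.0481, 0.176 and 0.0965 FPKM. The last values stand for 1, 6 and 2 fragments, 2 of them at or under a floor of 3 fragments. Like *Neurog3*, and unlike the other 7, *Pax4* was lower in every library labelled KO with hemin than in every control library with hemin. The pooled fragments, 9 with hemin and 124 with vehicle, gave a ratio of 14.3 with an exact 95% interval of 7.28 to 31.9, for counting error only.

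*Nkx2-2*, a homeodomain factor of subtype choice, is at chr2:147177546-147194243 (minus strand). It measured 0.464, 0.326 and 0.456 FPKM in controls with vehicle and 0.244, 0.324 and 0.179 FPKM with hemin. In colonoids labelled KO it measured 3.34, 3.22 and 3.74 FPKM with vehicle and 0.676, 0.503 and 0.509 FPKM with hemin. The increase of the mean over controls with vehicle was 8.27-fold, from 0.415 ± 0.0775 to 3.43 ± 0.272 FPKM, and the mean with hemin, 0.563 ± 0.0985 FPKM, was 6.1-fold below that (SD, n = 3). It shares 278 exonic bases with its antisense transcript *Nkx2-2os*, which was at 0 in all groups. The antisense gene *6430503K07Rik*, which overlaps *Nkx2-2* without a shared exonic base, stood at 0.134, 0, 1.62 and 0.179 FPKM in the group means.

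*Rfx6*, a winged-helix factor that acts after *Neurog3*, is at chr10:51677756-51730432 (plus strand). It measured 0.257, 0.292 and 0.29 FPKM in controls with vehicle and 0.0874, 0.105 and 0.128 FPKM with hemin. Libraries labelled KO had 1.62, 2.12 and 1.94 FPKM with vehicle and 0.346, 0.307 and 0.295 FPKM with hemin. The controls with hemin, at 4 to 6 fragments per library, were below the other 9 libraries.

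*Fev*, an ETS factor of serotonin-producing and other late cells, is at chr1:74881509-74885419 (minus strand). It measured 0.75, 0.905 and 0.945 FPKM in controls with vehicle and 0.922, 0.471 and 0.212 FPKM with hemin. In colonoids labelled KO it measured 3.03, 2.83 and 3.2 FPKM with vehicle and 0.687, 0.552 and 0.215 FPKM with hemin. Both hemin groups were spread widely, and they overlapped.

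*Isl1* and *Pax6* reached 1 FPKM in 0 of the 12 libraries. *Isl1*, a LIM-homeodomain factor at chr13:116298281-116309689 (minus strand), had 0.138, 0.0443 and 0.0368 FPKM in controls with vehicle and 0.0664, 0.0427 and 0 FPKM with hemin. The last 3 values stand for 3, 2 and 0 fragments, so that the gene was at or under the floor in each control library with hemin. With the KO label *Isl1* had 0.433, 0.57 and 0.495 FPKM with vehicle and 0.0702, 0.15 and 0.106 FPKM with hemin. *Pax6*, a paired-box homeodomain factor of *Gcg* and other hormone genes at chr2:105668900-105697364 (plus strand), had 0.0467, 0.05 and 0.0498 FPKM in controls with vehicle and 0.0375, 0.0796 and 0.0146 FPKM with hemin. In those labelled KO it had 0.12, 0.109 and 0.142 FPKM with vehicle and 0.0356, 0.0363 and 0.0417 FPKM with hemin. Both were highest in the 3 libraries labelled KO with vehicle. Their pooled fragments there, 100 for *Isl1* and 73 for *Pax6*, gave ratios to the vehicle controls of 6.7 (exact 95% interval 3.81 to 12.7) and 2.54 (1.61 to 4.1), intervals that cover counting error only.

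The comparisons across genes used limma on log2(FPKM + 1), a scale that understates the change of low genes, over 12740 genes with at least 1 FPKM in at least 3 libraries. A call needed a Benjamini-Hochberg adjusted p under 0.05 together with a log2 fold change beyond 1 in either direction. Of the 9 members 7 passed the filter on low values and 2, *Isl1* and *Pax6*, did not. *Neurog3* and *Insm1* would have passed without the libraries labelled KO with vehicle, whereas the other 5 passed only through that group and so had to be high there. Counts over the 7 are given on that understanding.

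With vehicle, colonoids labelled KO were compared with controls to ask what differed before hemin. *Neurog3* was higher by 2.57 on the log2 scale (SE 0.106), *Insm1* by 2.46 (SE 0.17), *Nkx2-2* by 1.65 (SE 0.091), *Rfx6* by 1.17 (SE 0.089) and *Fev* by 1.11 (SE 0.165). These 5 of the 7 were called higher, beside 3.53% of all tested genes, and 0 were called lower, beside 3.27%, with 0 lower at an unadjusted p under 0.05 and 0 by limma-voom. *Neurod1*, at 0.95 (SE 0.114), and *Pax4*, at 0.83 (SE 0.134), were under the fold threshold. Both were called higher with a pseudocount of 0.1 (1.44 and 1.56), after rescaling to TPM, which gives every library the same sum (1.4 and 1.39), and by adjusted p alone, settings that called 643, 710 and 2220 of all tested genes higher in place of 450. *Neurod1* was also called without replicate 1 of the vehicle controls (1.005). The median over the 7 was 1.17, and that over all tested genes was 0.02. All 9 members were higher in each library labelled KO than in each control, without overlap, as were 25.6% of the 20117 genes with at least 10 fragments in all. limma-voom on fragments recovered from the FPKM, over the same 20117 genes, called 9 of 9 higher, *Isl1* and *Pax6* included, beside 6.84% of all genes.

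Hemin was then compared with vehicle in colonoids labelled KO. *Neurog3* fell by 3.73 (SE 0.106), *Insm1* by 2.44 (SE 0.17), *Nkx2-2* by 1.5 (SE 0.091) and *Fev* by 1.45 (SE 0.165) on the log2 scale. *Pax4* fell by 1.26 (SE 0.134), *Rfx6* by 1.13 (SE 0.089) and *Neurod1* by 1.03 (SE 0.114). All 7 tested members were called lower, beside 8.07% of all tested genes, and 0 higher, beside 4.87%, with 0 higher at an unadjusted p under 0.05 and 0 by limma-voom. The call of *Neurod1* rested on 1 library, since without replicate 3 of the colonoids labelled KO with vehicle its difference was -0.993. The members' median was -1.45 and that of all tested genes was -0.002. The 2 groups did not overlap for any of the 9 members, which was so in the same direction for 31.7% of the 20117 genes. limma-voom called 9 of 9 lower, beside 14.4% of genes. This comparison shares its vehicle libraries with the one before, and the members' values in both turn on those 3 libraries.

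In control colonoids the response to hemin on log2(FPKM + 1) was under the fold threshold for each tested member. *Neurog3* stood 0.51 (SE 0.106) above vehicle, with each of 3 hemin libraries above each vehicle library, a 1.58-fold ratio of means that was under the fold threshold. *Insm1* stood at -0.65 (SE 0.17) and was called lower with a pseudocount of 0.1 (-1.08) and under TPM (-1.07), settings that called 1264 and 1441 of all tested genes lower in place of 756. Without replicate 3 of the hemin group it stood at -0.395. *Neurod1* stood at -0.4 (SE 0.114), *Fev* at -0.31 (SE 0.165), *Rfx6* at -0.21 (SE 0.089), *Nkx2-2* at -0.18 (SE 0.091) and *Pax4* at 0.02 (SE 0.134). *Fev* stood at -0.149 without replicate 3 of the hemin group and at -0.482 without its replicate 1. *Pax4* stood on the other side of 0, at -0.062, under TPM and at -0.019 without replicate 3 of the vehicle controls. With limma 0 members were called higher, beside 2.17% of tested genes, and 0 lower, beside 5.93%. At an unadjusted p under 0.05 there was 1 higher, beside 26.5% of tested genes, and 3 lower, beside 29.6%. limma-voom called 0 higher, beside 4.53% of the 20117 genes, and 3 lower, *Neurod1*, *Insm1* and *Rfx6*, beside 9.26%. Without overlap, 1 member was higher with hemin, *Neurog3*, beside 19% of the 20117 genes, and 4 were lower, *Neurod1*, *Insm1*, *Nkx2-2* and *Rfx6*, beside 22.5%.

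With hemin in both genotypes, colonoids labelled KO were set against controls. *Neurog3* was lower by a log2 difference of -1.67 (SE 0.106), from 4.18 to 0.64 FPKM, a 6.53-fold ratio, and was the 1 member called lower by limma on log2(FPKM + 1), beside 2.91% of tested genes. limma-voom called 2 lower, *Neurog3* and *Pax4* (-2.14), beside 5.96% of the 20117 genes, and *Pax4* was also called with a pseudocount of 0.1 (-1.62). On log2(FPKM + 1) limma called 0 higher, beside 3.1%, while 4 were higher at an unadjusted p under 0.05, beside 24.8%. limma-voom called 3 higher, *Insm1*, *Nkx2-2* and *Rfx6*, beside 5.02%. *Insm1* stood at 0.67 (SE 0.17), *Nkx2-2* at 0.32 (SE 0.091), *Neurod1* at 0.32 (SE 0.114), *Rfx6* at 0.25 (SE 0.089), *Fev* at -0.03 (SE 0.165) and *Pax4* at -0.45 (SE 0.134). Without replicate 3 of the controls with hemin *Insm1* stood at 0.415, and without their replicate 2 *Neurod1* stood at 0.186. The sign of *Fev* rested on 1 library, as it was 0.14 without replicate 1 of the controls with hemin and 0.102 without replicate 3 of those labelled KO with hemin. Without overlap, 5 members were higher in those labelled KO, *Neurod1*, *Insm1*, *Isl1*, *Nkx2-2* and *Rfx6*, beside 17.6% of the 20117 genes, and 2 were lower, *Neurog3* and *Pax4*, beside 15.4%. The factors thus stood on both sides of the controls under hemin, with *Neurog3* and *Pax4* below, those 5 above, and *Fev* and *Pax6* overlapping them.

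**Figure D2:**
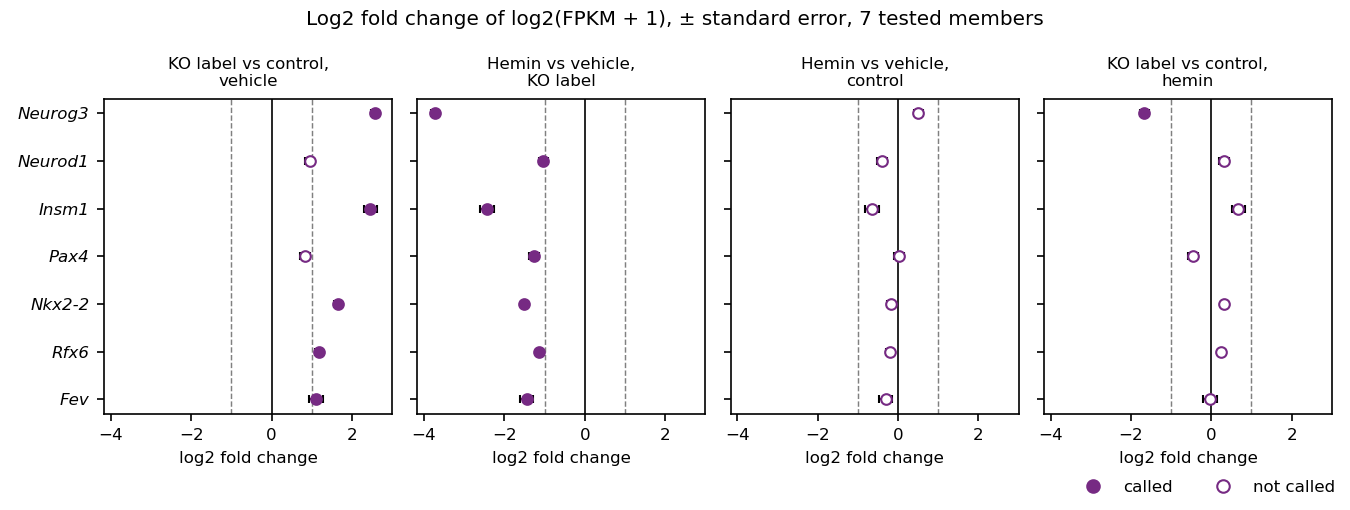
Log2 fold change of log2(FPKM + 1) with its standard error for the 7 tested members, 1 panel per comparison, with filled points for called members and dashed lines at the fold threshold of 1. *Neurog3* is at 2.57 and -3.73 in the panels on the left, at 0.51 for hemin in controls, and at -1.67 between genotypes with hemin, where the other 6 lie between -0.45 and 0.67.

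The response to hemin differed between genotypes by the interaction term for 5 of the 7 tested members, which were called lower, beside 2.56% of tested genes, and 0 were called higher, beside 2.57%, with 0 at an unadjusted p under 0.05 and 0 by limma-voom. The difference was -4.24 (SE 0.15) for *Neurog3*, -1.79 (SE 0.24) for *Insm1*, -1.32 (SE 0.129) for *Nkx2-2*, -1.29 (SE 0.19) for *Pax4* and -1.14 (SE 0.234) for *Fev*. *Rfx6*, at -0.92 (SE 0.126), and *Neurod1*, at -0.63 (SE 0.161), were under the fold threshold. *Rfx6* was called lower with a pseudocount of 0.1 (-1.37) and under TPM (-1.47), settings that each called 533 of all tested genes lower in place of 326. The call of *Fev* was lost with a pseudocount of 0.1 (-1.75), under limma-voom (-1.82), without replicate 1 of the controls with hemin (-0.966) and without the 3 libraries rich in *Gm23935* (-0.959).

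The order of the members by FPKM, which is per length, changed with hemin in colonoids labelled KO. *Neurog3* was first in the other 3 groups, followed by *Insm1*, and both overlapped in the vehicle controls and not elsewhere. In those labelled KO with hemin *Insm1* was first at 2.35 FPKM, followed by *Neurod1* at 0.86 FPKM and *Neurog3* at 0.64 FPKM, where *Neurod1* did not overlap *Neurog3* and *Neurog3*, *Nkx2-2* and *Fev* each overlapped the next, down to *Rfx6*. *Pax4* was the seventh in those labelled KO with vehicle and the eighth with hemin, where it overlapped *Isl1*, and the fifth and the fourth in controls with vehicle and with hemin. *Pax6* was ninth in each group except the controls with hemin, where *Isl1* was.

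The summed level of the 9 members was 7.6 to 8.52 FPKM in controls with vehicle, 6.02 to 8.6 with hemin, 49.7 to 53.1 in those labelled KO with vehicle and 5.37 to 5.64 with hemin. *Neurog3* supplied 29.9 to 34% of that sum in controls with vehicle and 53 to 64.6% with hemin. In colonoids labelled KO it supplied 39.5 to 40.7% with vehicle and 7.1 to 14.7% with hemin, so that the 4 groups did not overlap. The sum of the other 8 members was 5.33 to 5.62 FPKM in the vehicle controls and 2.13 to 4.04 FPKM in controls with hemin. In those labelled KO it was 29.5 to 32.2 FPKM with vehicle and 4.58 to 5.02 FPKM with hemin. *Insm1* per *Neurog3* was 0.803, 0.997 and 0.835 in controls with vehicle and 0.832, 0.871 and 0.797 in those labelled KO with vehicle, ranges that overlapped although both genes differed more than 7-fold in level. With hemin the ratio was 0.335, 0.367 and 0.121 in controls and 2.97, 6.16 and 3.15 in those labelled KO, on opposite sides of the vehicle groups. *Neurod1* per *Neurog3* was 0.326 to 0.391 in controls with vehicle, 0.0606 to 0.153 in controls with hemin and 0.13 to 0.145 in those labelled KO with vehicle. It was 1.03 to 2.49 in those labelled KO with hemin. Replicate 2 of that group, the library with the highest ratios, had 15 fragments of *Neurog3* and was among the 3 libraries rich in *Gm23935*. The ratios are within a library and do not depend on scaling between libraries.

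**Figure D3:**
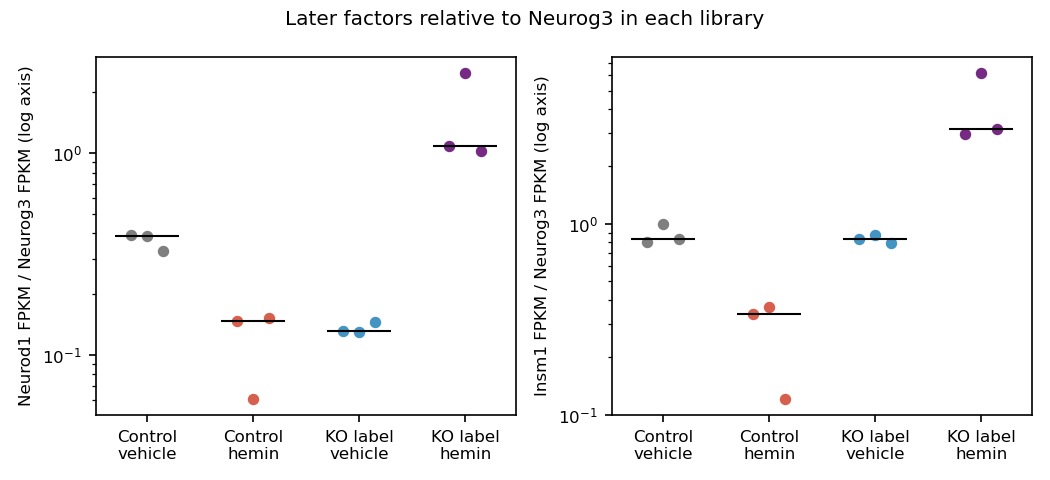
*Neurod1* FPKM over *Neurog3* FPKM (left) and *Insm1* FPKM over *Neurog3* FPKM (right) in each library on log axes, with a line at the group median. In those labelled KO with hemin the ratios are 1.03 to 2.49 and 2.97 to 6.16, above the other 9 libraries, and *Insm1* per *Neurog3* is alike in both vehicle groups.

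Over the 12 libraries the log2 levels of *Nkx2-2* and *Rfx6* had a Pearson r of 0.989, *Insm1* and *Nkx2-2* of 0.982 and *Neurog3* and *Pax4* of 0.947. *Neurog3* had 0.758 with *Neurod1* and 0.786 with *Insm1*. The 12 points share 4 groups, so these values describe group means as much as libraries. Among tested genes that are no members, the levels most like those of *Neurog3* were of *Reg4* (r 0.986), *Gfra3* (0.966), *Arhgef38* (0.96), *H2-M3* (0.96) and *Fut2* (0.958). *Reg4*, a secreted lectin-like protein of endocrine and other secretory cells, stood at 11.2, 17.1, 80.2 and 6.67 FPKM in the group means, in the same order of groups as *Neurog3*. *Reg4*, *H2-M3* and *Arhgef38* were also among the 5 most like *Pax4* (r 0.944, 0.956 and 0.944), with *Zfp862-ps* (0.955) and *Lrig3* (0.948). *Insm1* was most like *Sh3bgr*, *Cplx2*, *Kcnf1*, *Ptk7* and *Mical1* (r 0.983 to 0.992). *Rfx6* was most like *Ptpru*, *Cplx2*, *Kcnf1* and *Nod1* (r 0.989 to 0.993), and *Nkx2-2* like *Tgm3*, *Pappa2*, *Gal3st2b* and *5033404E19Rik* (r 0.991 to 0.993). For *Neurod1* they were *Slc35a3*, *Nr4a1*, *Msi2*, *Ppp1r9a* and *Fam114a1* (r 0.976 to 0.984), and for *Fev* they were *Dll4*, *Dmpk*, *AC113595.1*, *1700007K13Rik* and *Notch4* (r 0.966 to 0.972).

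Upstream of the members, 9 genes of secretory lineage choice were all tested. *Atoh1*, the factor that opens the secretory program and acts before *Neurog3*, fell with hemin in both genotypes. It went from 13.9 ± 1.78 to 3.86 ± 0.586 FPKM in controls (log2 difference -1.62, SE 0.128, limma adjusted p = 2.2e-06) and from 28.1 ± 1.28 to 3.66 ± 0.712 FPKM in those labelled KO (-2.65, SE 0.128, limma adjusted p = 3.2e-08). With hemin *Atoh1* thus stood at like levels in both genotypes (-0.07, SE 0.128, limma adjusted p = 0.73), where *Neurog3* stood at 4.18 FPKM in controls and 0.64 in those labelled KO. *Hes1*, the Notch target that represses *Atoh1*, stood at 46.1, 28.8, 45 and 30.8 FPKM in the group means and was called in no comparison. Of the 9, 4 were called lower with hemin in controls (*Spdef*, *Atoh1*, *Jag1* and *Sox9*), beside 5.93% of all tested genes, and 6 in those labelled KO (*Spdef*, *Atoh1*, *Dll1*, *Gfi1*, *Sox9* and *Notch1*), beside 8.07%, with list medians of -0.91 and -1.32 beside -0.01 and -0.002 over all genes. With vehicle, the Notch ligand *Dll1* was called higher in those labelled KO, at 5.49 against 1.92 FPKM (limma adjusted p = 4e-05), and the ligand *Jag1* lower, at 3.57 against 11.6 FPKM (limma adjusted p = 4.1e-08), with a list median of 0.54 beside 0.02. With hemin, *Spdef*, a factor of goblet cell maturation, was the gene called lower in those labelled KO (list median -0.07 beside 0.04), and by the interaction *Spdef* and *Atoh1* were (list median -0.72 beside 0.02). Both interaction calls were lost when the 3 libraries rich in *Gm23935* were left out, and that of *Atoh1*, at -1.03, also without any 1 of 5 libraries, at -0.912 to -1. These were replicates 2 and 3 of the controls with vehicle and replicate 2 of each other group. *Dll1*, at -0.93 in the interaction, was called lower without replicate 3 of the vehicle controls (-1.05) or replicate 3 of those labelled KO with hemin (-1.03). Without replicate 1 of the vehicle controls *Atoh1* was called higher in those labelled KO with vehicle, at 1.06 against 0.97.

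Of 12 other transcription factors of this lineage, 4 were tested. *Foxa2*, which acts with *Foxa1* in *Gcg*-producing and other endocrine cells, was called higher in those labelled KO with vehicle, at 27.9 against 2.62 FPKM (3, SE 0.122, limma adjusted p = 1.3e-08), and with hemin, at 10.9 against 2.13 FPKM (1.95, SE 0.122, limma adjusted p = 4.3e-07). With hemin it fell in those labelled KO by 1.28 (SE 0.122), as did *Myt1*, a zinc finger factor linked to *Neurog3*, by 1.14 (SE 0.101), from 1.31 to 0.053 FPKM. *Myt1* passed the filter on low values only through the libraries labelled KO with vehicle, at 1.23 to 1.38 FPKM against at most 0.236 in the others, and so had to be high there. With hemin in those labelled KO, these 2 of the 4 were called lower, beside 8.07% of all tested genes (list median -1.06 beside -0.002). Both were also called lower in the interaction, beside 2.56% (-0.83 beside 0.02). In controls with hemin 0 of the 4 were called lower, beside 5.93% (-0.28 beside -0.01), and 1 was lower at an unadjusted p under 0.05, beside 29.6%. limma-voom also covered untested genes of the list with at least 10 fragments. Of the whole list it called 0 lower and 1 higher in controls, beside 9.26% and 4.53% of the 20117 genes. *Sox4*, at -0.98 with hemin in those labelled KO, was called lower there without any 1 of 3 libraries (-1.04 to -1.018), replicate 1 with vehicle and replicates 1 and 3 with hemin. The interaction calls rested on single libraries, with *Foxa2* at -0.986 without replicate 2 of the vehicle controls or replicate 2 of the controls with hemin and at -0.96 without replicate 1 of the latter, and *Myt1* at -0.946 without that replicate 2 and -0.993 without replicate 1 of the vehicle controls. *Myt1*, at 0.98 with vehicle between genotypes, was called there without replicate 2 of the controls (1.01) or replicate 1 of those labelled KO (1.003). The list medians between genotypes were 0.81 with vehicle beside 0.02 and 0.04 with hemin beside 0.04. Among the 8 that were not tested, *St18* went from 0.441 to 0.606 FPKM with vehicle in those labelled KO to at most 0.0394 FPKM with hemin, whereas *Lmx1a* held 0.414 to 0.494 and 0.338 to 0.452 FPKM.

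Downstream, 4 of 11 tested hormone and serotonin genes were called lower with hemin in those labelled KO, beside 8.07% of all tested genes, and 0 higher, beside 4.87%, with 1 higher at an unadjusted p under 0.05 and 0 by limma-voom. *Gcg*, the glucagon-like peptide precursor, fell from 15.7 to 2.79 FPKM (-2.14, SE 0.186, limma adjusted p = 2.5e-06), *Cck*, cholecystokinin, from 4.23 to 0.299 FPKM (-2.03, SE 0.122), *Insl5* from 77.1 to 30 FPKM (-1.33, SE 0.124) and *Sst*, somatostatin, from 2.09 to 0.405 FPKM (-1.16, SE 0.165). The list median was -0.51 beside -0.002. *Pyy*, peptide YY, stood at 403 ± 12.3 with vehicle and 340 ± 42.7 FPKM with hemin (-0.25, SE 0.151, limma adjusted p = 0.17). Under the fold threshold were also *Ppy*, pancreatic polypeptide, at -0.69 (SE 0.145, limma adjusted p = 0.0018), and *Ddc*, an enzyme of serotonin synthesis, at 0.82 (SE 0.089, limma adjusted p = 1.4e-05). *Sst* was not called without replicate 2 of those labelled KO with hemin (-0.971). In controls with hemin *Cck* was the 1 gene called lower (list median -0.38 beside -0.01), joined by *Pyy* (-1.02) and *Nts* (-1.05) without replicate 2 of the vehicle controls, by *Pyy* (-1.13) without replicate 1 of the hemin group and by *Nts* (-1.35) without its replicate 3. Between genotypes with vehicle 6 were called higher, led by *Ppy*, *Pyy*, *Insl5* and *Tac1*, beside 3.53% of all tested genes, and 1 lower, *Nts*, beside 3.27% (list median 1.22 beside 0.02). With hemin 6 were called higher, led by *Pyy*, *Ppy*, *Insl5* and *Ddc*, beside 3.1%, and 2 lower, *Nts* and *Sst*, beside 2.91% (list median 1.09 beside 0.04). *Ppy*, *Tac1* and *Sct*, at means of 0.405, 0.189 and 0.835 FPKM in the vehicle controls, passed the filter on low values only through libraries labelled KO, and so had to be high there. *Nts*, at a mean of 0.458 FPKM in those labelled KO with vehicle, passed it only through controls. *Gcg*, called higher with vehicle (1.26), stood at -0.4 with hemin. *Sct*, secretin, was called with hemin (1.09) and was not without replicate 3 of the controls with hemin (0.846), and it stood at 0.97 with vehicle, where it was called without any 1 of 3 libraries (1.004 to 1.083), replicates 2 and 3 of the controls and replicate 2 of those labelled KO. By the interaction *Sst*, *Gcg* and *Insl5* were called lower, beside 2.56% (list median -0.22 beside 0.02), and so was *Cck*, at -0.91, without replicate 3 of those labelled KO with hemin (-1.07).

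Of the granule and prohormone genes, 6 were tested. With hemin in those labelled KO limma called 0 of them lower, beside 8.07% of all tested genes, and 0 higher, beside 4.87% (list median -0.07 beside -0.002). *Chga*, chromogranin A, stood at 36.7 ± 1.14 FPKM with vehicle and 28.4 ± 2.9 FPKM with hemin in those labelled KO (-0.36, SE 0.157, limma adjusted p = 0.066), and *Chgb* at 90.5 ± 1.64 and 65 ± 3.4 FPKM (-0.47, SE 0.154, limma adjusted p = 0.02). *Scg2*, secretogranin II, went from 3.9 to 1.68 FPKM (-0.87, SE 0.085, limma adjusted p = 6.4e-06), which was under the fold threshold. *Cpe*, a carboxypeptidase of prohormone processing, went from 15.2 to 30.4 FPKM (0.96, SE 0.075, limma adjusted p = 1.2e-06) and *Slc18a1*, a vesicular monoamine transporter, from 1.28 to 3.27 FPKM (0.9, SE 0.086, limma adjusted p = 5.3e-06), also under the threshold. Without overlap, 3 of the 6 were thus lower with hemin, beside 31.7% of the 20117 genes, and 2 higher, beside 27.2%. At an unadjusted p under 0.05, 2 of the 6 were higher and 3 lower, while adjusted p alone called 3815 higher and 3879 lower of all 12740 tested genes. limma-voom also covered untested genes of the list with at least 10 fragments. Of the whole list it called 2 higher and 2 lower, beside 1285 and 2902 of the 20117 genes. Between genotypes the same 5 genes, *Chga*, *Chgb*, *Scg2*, *Pcsk1n* and *Cpe*, were called higher both with vehicle, beside 3.53% of all tested genes (list median 1.57 beside 0.02), and with hemin, beside 3.1% (1.58 beside 0.04), at 28.4 against 6.76 FPKM for *Chga* with hemin, where *Neurog3* was lower. *Scg2* and *Pcsk1n*, at means of 0.527 and 0.739 FPKM in the vehicle controls, passed the filter on low values only through libraries labelled KO, and so had to be high there. In controls with hemin *Cpe* was called higher, beside 2.17% of all tested genes (list median -0.19 beside -0.01). By the interaction 0 of 6 were called, beside 2.57% higher and 2.56% lower (list median -0.18 beside 0.02). At an unadjusted p under 0.05, 0 of the 6 were higher and 1 lower by the interaction. limma-voom called 0 higher and 1 lower of the whole list, beside 516 and 853 of the 20117 genes.

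**Figure D4:**
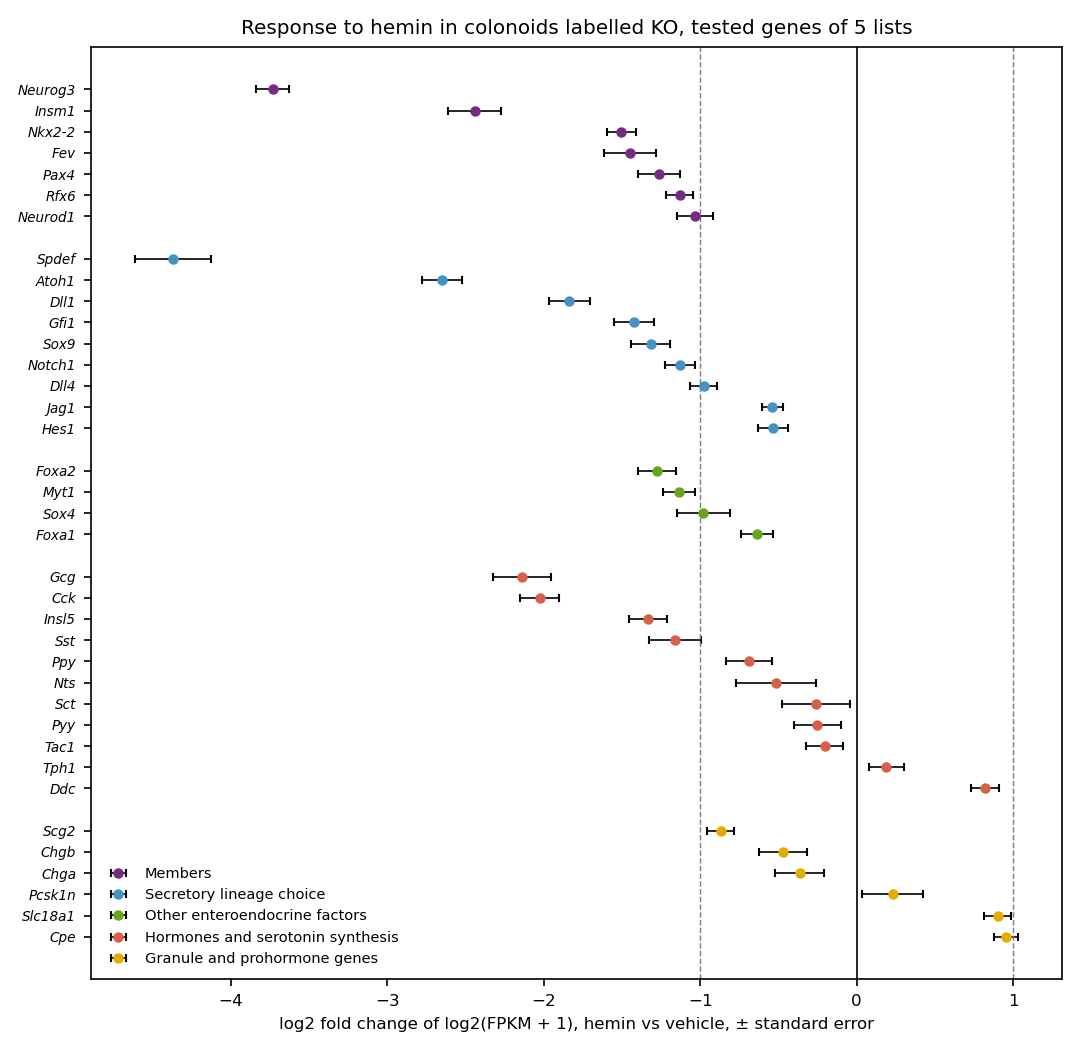
Log2 fold change of log2(FPKM + 1), hemin against vehicle in colonoids labelled KO, with its standard error, for the tested genes of 5 lists, with dashed lines at the fold threshold of 1. All 7 members lie between -3.73 and -1.03, *Atoh1* at -2.65, and *Chga*, *Chgb* and *Pyy* at -0.36, -0.47 and -0.25.

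Markers of other cell types also differed between the groups, some in the direction of the members and some against it. The 7 goblet cell genes summed to 2370 to 2500 FPKM with vehicle and 594 to 654 FPKM with hemin in those labelled KO, where 6 of 7 were called lower, beside 8.07% of all tested genes, and to 1690 to 1930 and 1050 to 1410 FPKM in controls, where 2 were, beside 5.93%. The 6 stem cell genes summed to 59.1 to 62 and 13.4 to 16.7 FPKM in those labelled KO, where 4 of 5 tested were called lower, beside the same 8.07%, and to 42.6 to 48.6 and 16 to 18.9 FPKM in controls, where 2 were, beside 5.93%. The 6 colonocyte genes summed to 1910 to 1970 and 3140 to 3920 FPKM in those labelled KO and to 2590 to 2840 and 4570 to 7000 FPKM in controls. *Car1* made up most of that sum, at 1314 and 2849 FPKM in those labelled KO and 2129 and 4918 FPKM in controls, and was called higher with hemin in both. Against the sum, *Car4* (-3.43) and *Guca2a* (-1.95) were called lower with hemin in those labelled KO, beside 8.07%, and *Aqp8* (-2) in controls, beside 5.93%. Of the 7 epithelial genes, *Krt20* and *Vil1* were called higher with hemin in those labelled KO, beside 4.87% of all tested genes. With vehicle, 2 of 7 goblet genes, *Spink4* and *Agr2*, and 2 of 5 tested stem cell genes, *Ascl2* and *Smoc2*, were called higher in those labelled KO, beside 3.53% of all tested genes. *Ascl2*, at a mean of 0.894 FPKM in the vehicle controls, passed the filter on low values only through libraries labelled KO. With vehicle 3 of 6 colonocyte genes, *Car4* (4.36), *Aqp8* (3.25) and *Slc26a3* (1.32), were called higher too. Another colonocyte gene, *Guca2a* (-2.55), and 1 of 7 epithelial genes, *Cdx2* (-2.03), were called lower, beside 3.27%. Between genotypes with hemin, 3 of 7 goblet genes, *Muc2* (-3.01), *Fcgbp* (-2.3) and *Tff3* (-1.79), were called lower in those labelled KO, beside 2.91% of all tested genes. So were 1 of 5 tested stem cell genes, *Cdca7* (-1.13), 1 of 6 colonocyte genes, *Guca2a* (-4.63), and 1 of 7 epithelial genes, *Cdx2* (-1.27). Called higher there, beside 3.1%, were 1 goblet gene, *Spink4* (3.4), 2 colonocyte genes, *Aqp8* (5.73) and *Car4* (1.61), and 1 stem cell gene, *Ascl2* (1.12). The part of these shifts in the members' levels was not tested. Several members are also known from neurons. The 8 neuron and glia genes summed to 1.53 to 1.82 FPKM in controls with vehicle, 3.76 to 5.07 with hemin, and 3.27 to 3.66 and 2.4 to 2.93 FPKM in those labelled KO with vehicle and hemin. The glial factor *Sox10* was at 0 in every library. The neuronal *Elavl4* had 38 fragments in those labelled KO with vehicle and 3, 1 and 2 in controls with vehicle, controls with hemin and those labelled KO with hemin. *Snap25*, a synaptic gene that endocrine cells also express, stood at 0.0349, 0.0421, 0.211 and 0.183 FPKM in the group means. Of the 2 that were tested, *Ret* was called by limma on log2(FPKM + 1) in no comparison, with 1.56 FPKM in those labelled KO against 0.584 in controls with vehicle (0.69, SE 0.084). *Tubb3* was called higher with hemin in controls (1.04), lower in those labelled KO than in controls with hemin (-1.48) and lower by the interaction (-1.72). Their part in the members' levels was not tested. The 6 tuft cell genes summed to at most 0.916 FPKM, the 6 fibroblast genes to at most 0.885 and the 6 immune cell genes to at most 0.631, and none of these 3 lists held a tested gene.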

How the data were processed

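RNA-seq of 12 colonoid libraries was analysed from the deposited gene table of the authors, in which each value is an FPKM. Per the labels, libraries were prepared from polyadenylated RNA by Novogene, and the submitters' processing notes name fastp, HISAT2 2.0.5, featureCounts 1.5.0-p3 and mm10. The kit is described as directional or non-directional, and the strand setting of counting is not given in the sources used here. Size factors computed from the deposited FPKM by the median of ratios were equal in all 12, so a scaling between libraries was already in the values. Every value above 0 was a whole multiple of that of 1 fragment within a tolerance of 0.01, so fragments were recovered from FPKM and gene length for depths, floors of 3 fragments and limma-voom. The counting error of 11648801 to 25101868 fragments limits the low members most. Libraries of a group differed by more than sampling noise, with a chi-square per degree of freedom of 1.98 to 47.9 over 12 pairs.

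Groups and replicate numbers were taken from the labels, and dose, time and age from the series' design text and the study's methods. With R 4.3.3, limma 3.58.1 modelled log2(FPKM + 1) by group means with an intensity trend, over the 12740 of 54532 genes with at least 1 FPKM in at least 3 libraries. Adjusted p-values are by Benjamini-Hochberg over these genes, two-sided. The script was tested on simulated data. The members and all lists were chosen with earlier results of these data known. Named companion genes were, of each list, up to 4 called genes with the largest change per comparison, *Atoh1*, *Hes1*, *Chga* and *Chgb* always, the 5 genes most like each tested member by Pearson r, of which 1 is not reported here, and *Hmox1* as the targeted gene. *Pyy*, *Ppy*, *Ddc*, *Scg2*, *Cpe*, *Slc18a1* and *Sox4* with hemin in those labelled KO, *Gcg* and *Sct* between genotypes, *Dll1* and *Cck* in the interaction, *Gm23935*, *Lmx1a*, *St18* and genes that overlap members were chosen after their values were seen, as were goblet, stem, colonocyte, epithelial and neuron genes named by their values or calls. Lists were secretory lineage choice, other transcription factors, hormones and serotonin synthesis, granule and prohormone genes, and markers of epithelial, goblet, colonocyte, stem, tuft, neuron and glia, fibroblast and immune cells. Alternatives were a pseudocount of 0.1, no filter, TPM, the replicate number as a block, limma-voom over 20117 genes with at least 10 fragments, only the groups compared, calls by adjusted p alone, no intensity trend and each library left out in turn. TPM without *Gm23935* in the sum, and the 3 libraries with over 10% *Gm23935* left out together, were added after seeing the data.

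Coordinates are those of the table, which were the same as in GENCODE M21 for 98.33% of 54409 matched genes and for all 9 members. Promoter windows are from RefSeq (GRCm38.p6). The other software was Python 3.11.15, pandas 2.3.3, scipy 1.17.1 and matplotlib 3.10.9.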

Additional observations from a re-analysis of the deposited data

Results flagged for a closer look

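The response to hemin differed between colonoids labelled KO and controls by the interaction term of the limma fit for 5 of the 7 tested members, called lower beside 2.56% of tested genes. On the log2 scale the response of those labelled KO was lower than that of controls by a difference of -4.24 for *Neurog3*, -1.79 for *Insm1*, -1.32 for *Nkx2-2*, -1.29 for *Pax4* and -1.14 for *Fev*. Among the members *Neurog3* alone had libraries that separated without overlap in opposite directions, above vehicle in 3 of 3 controls with hemin and below it in 3 of 3 labelled KO with hemin. Of the 20117 genes with at least 10 fragments, 19% were higher without overlap in controls and 31.7% lower in those labelled KO. The share with both was not computed. *Nkx2-2*, *Pax4* and *Fev* passed the filter on low values only through the libraries labelled KO with vehicle. The call of *Fev* was lost under limma-voom (-1.82), with a pseudocount of 0.1 (-1.75), without replicate 1 of the controls with hemin (-0.966) and without the 3 libraries rich in *Gm23935* (-0.959). These members were chosen with that response in view. The groups of 3 libraries are too small for a test of single outlying samples.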

How the results depend on the processing

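Members called higher with vehicle in those labelled KO numbered 5, and 7 with a pseudocount of 0.1, under TPM, under TPM without *Gm23935* and by adjusted p alone, 6 without the 3 libraries rich in *Gm23935*, and 9 under limma-voom. All tested genes called higher there numbered 450, and 643, 710, 637, 2220, 450 and 1377 in the same order. Members called lower with hemin in controls numbered 0, and 1 with a pseudocount of 0.1, 1 under TPM, 1 under TPM without *Gm23935*, 3 under limma-voom and 2 by adjusted p alone, which also called 1 higher. All tested genes called lower there numbered 756, and 1264, 1441, 1294, 1862 and 3406 in the same order. Between genotypes with hemin, 0 were higher and 1 lower, against 2 and 2 with a pseudocount of 0.1, 3 and 2 under limma-voom and 2 and 2 by adjusted p alone, where all tested genes went from 395 and 371 to 690 and 652, 1009 and 1198, and 2509 and 1874. The cause was not tested. Leaving out each library in turn gave 6 to 7 members lower with hemin in those labelled KO, 5 to 6 higher with vehicle, 4 to 5 lower by the interaction and 1 lower between genotypes with hemin. *Pax4* in controls changed sign under TPM (-0.062), under TPM without *Gm23935* (-0.019) and without replicate 3 of the vehicle controls (from -0.019 to 0.061 over the libraries left out). *Fev* between genotypes with hemin did so without replicate 1 of the controls (0.14), without replicate 3 of those labelled KO (0.102) and without the 3 libraries rich in *Gm23935* (0.101). The interaction of *Fev* was not called with a pseudocount of 0.1 (-1.75), under limma-voom (-1.82) or without those 3 libraries (-0.959), whereas that of *Rfx6* was called with a pseudocount of 0.1 (-1.37), under TPM (-1.47) and under TPM without *Gm23935* (-1.42).

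Same-numbered libraries of different groups did not deviate together (mean r -0.04, from -0.33 to 0.18, over 18 pairs), so the numbers were taken as names. With the replicate block, 7 members were lower with hemin and 5 higher with vehicle in those labelled KO, and the replicate block moved no count of members.

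TPM shifted the median of all genes to -0.31 for hemin in those labelled KO, -0.19 for hemin in controls, 0.16 and 0.05 between genotypes with vehicle and hemin, and -0.11 for the interaction. There, 620 genes higher and 1028 lower with hemin in those labelled KO became 403 and 2334 under TPM and 1285 and 2902 under limma-voom. With hemin in controls, 277 higher became 496 with a pseudocount of 0.1 and 912 under limma-voom. Depth limits *Isl1*, *Pax6* and, with hemin, *Pax4*, which rest on few fragments per library.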
